A study of Homo sapiens with 10 samples.

Results

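The amplified segments of chromosomes 9, 13 and 22 in K562 comprised 77 windows of 100 kb (hg19) of the 361 windows in 3 search ranges and of 28059 windows in all outside chromosome Y. The ranges ran from 130.9 to 134.2 Mb on chromosome 9, from 81.1 to 108.7 Mb on chromosome 13 and from 17.0 to 23.7 Mb on chromosome 22. A window was a member where the mean relative depth of the 2 K562 H2AX libraries was at least 3 times that of the 2 HepG2 H2AX libraries. Relative depth is the read coverage divided by its mean over the library without chromosome Y, so that 1 is the library mean. The bins of BCR on chromosome 22 and of ABL1 on chromosome 9, the partners of the Philadelphia translocation, were left out. Members numbered 6 on chromosome 9, 30 on chromosome 13 and 41 on chromosome 22, in 11 runs of adjoining windows. Members were thus chosen by their H2AX levels, which are given as a description with no test.

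Gamma-H2AX is histone H2AX phosphorylated by the kinases of the DNA damage response over broad stretches of chromatin around double-strand breaks, and it fades as breaks are repaired. K562 is an erythroleukaemia line from a chronic myeloid leukaemia in blast crisis, known for extra copies of the BCR-ABL1 fusion and of chromosome 13 sequence. An amplified stretch sends more DNA into every library made from the line, whatever histone the antibody binds, so coverage there has to be read beside an untreated histone profile. H3K27me3 is the mark that Polycomb repressive complexes lay down over silenced genes.

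The libraries came from CUT&RUN, in which a nuclease tethered to an antibody cuts out the bound chromatin. The irradiated groups were given 6 Gy of 60Co radiation. The groups were K562 gamma-H2AX after 1 h of recovery (n = 2), K562 gamma-H2AX after 24 h (n = 2), HepG2 gamma-H2AX after 1 h (n = 1, a hepatocellular carcinoma line), K562 H3K27me3 after 1 h (n = 1), untreated K562 H2AX (n = 2) and untreated HepG2 H2AX (n = 2). No gamma-H2AX library of unirradiated cells was analysed here. For the H2AX libraries the antibody is labelled as one against histone H4. Whether replicates were separate cultures is not in the labels; the p-values therefore rest on library-to-library spread that may be only technical. Mean coverage per base lay between 0.326 and 1.78, and low values fell on steps of 60 bp in the 3 K562 libraries made at 1 h and of 41 bp in the other 7. The 60-bp step coincides with the group in every comparison of 1 h K562 libraries with other groups, and its part cannot be told apart from the group's.

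The deposited track of 24 h replicate 1 reads 0 in all 933066 bins of 1 kb in which the K562 1 h libraries average a depth above 1.642, which is 33.3% of all bins. Those bins included 7252 of the 7611 bins of the members, or 95.3%. In the members 95.4% of bins read 0 in 24 h replicate 1, against 0.105% in 24 h replicate 2. The 24 h values below therefore come from replicate 2 alone, with its error taken from the spread of the other groups, and replicate 1 was left out of the tests.

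The ratio of K562 H2AX to HepG2 H2AX, which chose the windows, ran from 3.14 to 11.8 with a median of 5.97. The 3 members nearest the threshold stood at 3.14, 3.22 and 3.57, and the 3 windows of the ranges just below it at 2.72, 2.63 and 2.59. The windows at 3.14, 3.22, 2.72 and 2.63 each held the largest change in K562 H2AX at the edge of a chromosome 13 run. Their ratios thus average bins inside and outside a segment. On chromosome 13 the median ratio was 4.19, and on chromosome 22 it was 7.51. The 9 members at a ratio of 9 or more lay beside the left-out loci, 6 of them on chromosome 22 and 3 on chromosome 9. Windows of the ranges that were not members had a median ratio of 1.65 on chromosome 9 (24 windows), 0.498 on chromosome 13 (243 windows) and 1.90 on chromosome 22 (14 windows). The chromosome 13 pieces thus stood in a range whose other windows were below the library mean, with a median K562 H2AX of 0.479. Outside the ranges 22 windows reached the 3-fold ratio, and 0 of them had a K562 H2AX level of 2 or more. Copies per cell and the share of cells that carry them cannot be told apart in these bulk libraries, and no genomic DNA library was analysed here.

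**Figure D1:**
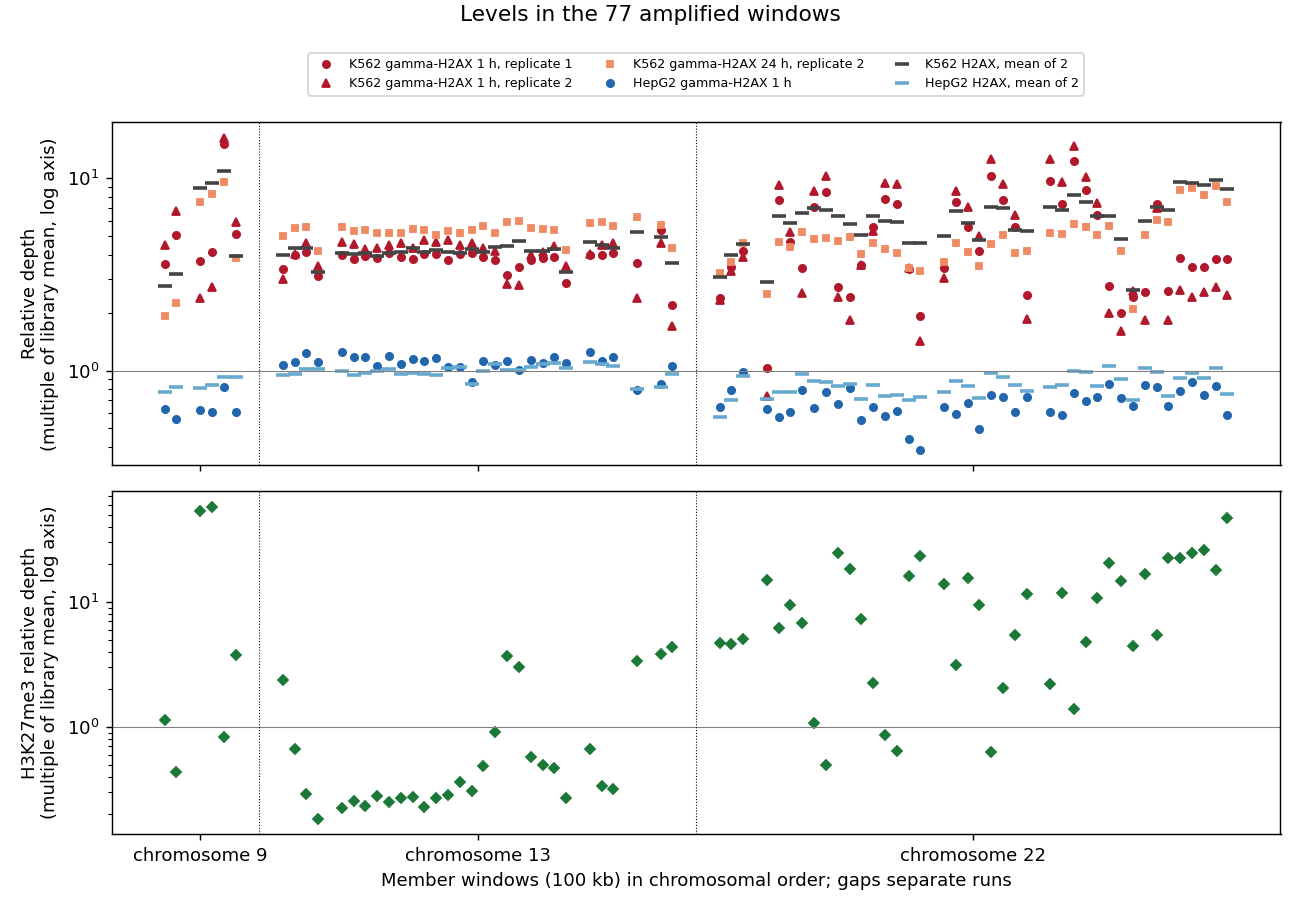
Relative depth (multiple of the library mean, log axes) of the 77 member windows in chromosomal order, with gamma-H2AX of both lines and H2AX above and K562 H3K27me3 below. The K562 1 h and 24 h points lie above the HepG2 gamma-H2AX point in all 77 windows, and on chromosomes 9 and 22 the K562 1 h points scatter on both sides of the K562 H2AX dashes.

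Gamma-H2AX was high over the members in K562 and near the library mean in HepG2. The rule used none of the gamma-H2AX libraries, but it chose windows where K562 coverage exceeded HepG2 coverage in H2AX. Comparisons of K562 with HepG2 that are not divided by H2AX are therefore description only. Over the 77 members the mean relative depth of gamma-H2AX at 1 h was 4.80 ± 0.222 in K562 (SD, n = 2), against 0.843 in HepG2 (n = 1). At 24 h, K562 replicate 2 averaged 5.18. The members held 1.31% ± 0.0602 of the K562 1 h gamma-H2AX signal (SD, n = 2), against 0.229% of the HepG2 gamma-H2AX signal. For comparison, they held 1.49% ± 0.0267 of the K562 H2AX signal and 0.245% ± 0.0014 of the HepG2 H2AX signal (SD, n = 2 each). Both K562 1 h replicates exceeded the HepG2 library in 77 of 77 members, an order found in 32.9% of all tested windows. K562 24 h replicate 2 exceeded the HepG2 library in 77 of 77 members too, against 50.6% of all tested windows.

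In limma's test of K562 over HepG2 gamma-H2AX at 1 h, all 77 members were higher in K562 at a Benjamini-Hochberg adjusted p under 0.05, where 24.6% of 27606 tested windows were called higher, 43.8% lower and 68.3% in either direction. All members had passed the filter on low H2AX. This comparison is not divided by H2AX and its direction is the one the rule chose windows for, so the counts are description only. The median log2 difference was 1.92 over the members, with a range of 0.44 to 4.16, against -0.28 over all tested windows. It was 2.82 on chromosome 9, 1.82 on chromosome 13 and 2.57 on chromosome 22. The smallest difference was that of chr22:18900001-19000000, a window rich in H3K27me3, where K562 gamma-H2AX was 1.03 and 0.742, against 0.631 in HepG2 (log2 difference 0.44 ± 0.17 SE, adjusted p = 0.047). Leaving out K562 1 h replicate 1 or replicate 2 gave 0.22 or 0.67 there. K562 H2AX also stepped up inside this window, from 1.01 to 4.76 at 18950001 in bins of 10 kb. Only 55% of the bins around that edge of the run were present. The part of this step in the small difference was not tested. A pseudocount of 0.01, no filter, median-of-ratios scaling, a fit on the compared groups alone, or leaving out any 1 of the 4 H2AX libraries left 76 members called, without this window. The fit that includes 24 h replicate 1 calls 0 of the 77 members, because the spread it pools then includes the 0 values of that track.

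The largest gamma-H2AX levels lay beside ABL1 and in the middle of the chromosome 22 segment. In chr9:134000001-134100000 K562 gamma-H2AX had a relative depth of 15.01 and 16.3 at 1 h and of 9.63 at 24 h (replicate 2), against 11.2 and 10.7 in K562 H2AX. The HepG2 values were 0.824 for gamma-H2AX and 0.914 and 0.948 for H2AX, and K562 H3K27me3 was 0.828. This window was thus at or below the library mean in HepG2 and in H3K27me3, and more than 9 times it in every K562 gamma-H2AX and H2AX library other than 24 h replicate 1.

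Directly beside it, chr9:133900001-134000000 showed the opposite relation of the marks. Gamma-H2AX at 1 h was 4.15 and 2.71 and at 24 h 8.33 (replicate 2), against a K562 H2AX of 9.81 and 9.14. H3K27me3 reached 57.8, the highest of all members, and the window before it (chr9:133800001-133900000) followed with 53.3. The neighbours differed little in H2AX, while gamma-H2AX at 1 h was at least 3 times higher in the window poor in H3K27me3.

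On chromosome 22 the highest 1 h level was in chr22:22100001-22200000, with 12.3 and 14.7 in gamma-H2AX, against 8.33 and 7.97 in H2AX, and an H3K27me3 level of 1.39. At 24 h it was 5.76 in replicate 2, below both H2AX replicates. Next came chr22:21100001-21200000 with 10.3 and 12.7 at 1 h, against 7.47 and 6.70 in H2AX, an H3K27me3 level of 0.629 and a 24 h level of 4.55. In both windows the 1 h replicates stood above and the 24 h library below the H2AX replicates. The windows nearest BCR were different: chr22:23400001-23500000 had 3.79 and 2.47 in gamma-H2AX at 1 h, against 9.29 and 8.39 in H2AX, with an H3K27me3 level of 46.6, the highest on the chromosome.

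Set against K562 H2AX, gamma-H2AX at 1 h was higher in some members and lower in others. This ratio shares the K562 H2AX libraries with the rule, and the counts are given as description only. Of the 77 members 15 were called higher and 31 lower by limma (adjusted p under 0.05), against 33.3% higher, 37.7% lower and 71.1% in either direction among all tested windows. The members' median log2 ratio was -0.05, against 0.06 over all tested windows, with a range of -1.70 to 0.88. On chromosome 9, 4 members were called higher and 2 lower. On chromosome 13, 0 were called higher and 6 lower. On chromosome 22, 11 were called higher and 23 lower. Both 1 h replicates exceeded both H2AX replicates in 15 members, an order found in 46.1% of all tested windows, and fell below both in 34 members, against 42.6% of all tested windows. With 24 h replicate 1 in the fit, 1 member was called.

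Among the members with the highest ratio to H2AX, chr9:131000001-131100000 had gamma-H2AX of 5.09 and 6.79 at 1 h, against 3.33 and 3.02 in H2AX (log2 ratio 0.88 ± 0.13 SE). Its neighbour chr9:130900001-131000000 gave a log2 ratio of 0.53 ± 0.12 SE. At the other end, chr22:18900001-19000000 had 1.03 and 0.742 in gamma-H2AX at 1 h, against 3.06 and 2.71 in H2AX (log2 ratio -1.66 ± 0.14 SE), and chr22:23100001-23200000 had 3.47 and 2.42, against 9.61 and 9.42 (log2 ratio -1.70 ± 0.13 SE). In each of these 4 windows the replicates of gamma-H2AX and of H2AX did not overlap. They were picked as the highest and lowest of this ratio, so their values are a description with no test.

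Within the members the 1 h ratio was lower where H3K27me3 was higher. The 37 members whose H3K27me3 level was under 0.5 times their H2AX level had a median log2 ratio of gamma-H2AX to H2AX of 0.04. The 22 members at 0.5 to 2 times had a median of -0.21, and the 18 members at 2 times or more had a median of -1.45. In the other windows of the genome these medians were 0.35, -0.64 and -1.22. The Spearman correlation between the 2 ratios, each over a different H2AX replicate, was -0.69 over the 77 members and -0.79 over the 27529 other windows. It was -0.79 over the 30 members of chromosome 13 and -0.83 over the 41 of chromosome 22. Over windows of 10 kb it was -0.78 in all members (n = 763), -0.49 on chromosome 13 (n = 299) and -0.85 on chromosome 22 (n = 404). These points share libraries and neighbouring sequence, and the H2AX replicates share their pattern, so the correlations describe the segments and carry no test.

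**Figure D2:**
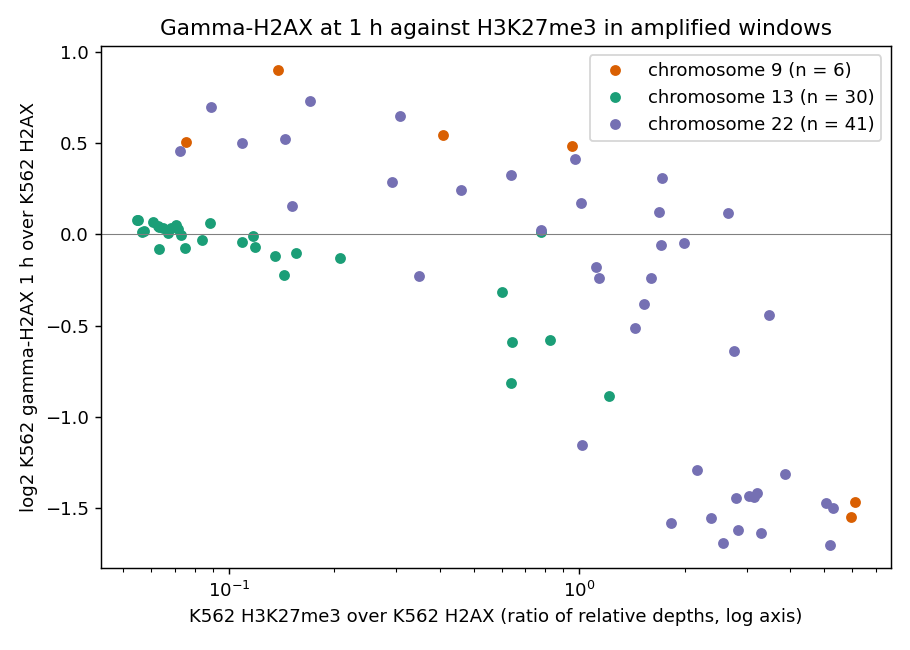
Log2 ratio of K562 gamma-H2AX at 1 h to K562 H2AX against the ratio of K562 H3K27me3 to K562 H2AX (log axis) in the 77 members, coloured by chromosome. Members with an H3K27me3 ratio under 0.5 lie around and above 0 with a median of 0.04, and those at 2 or more have a median of -1.45; the low-H3K27me3 points of chromosome 13 form a tight group near 0.

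Most members of chromosome 13 were poor in H3K27me3, and those members were even in gamma-H2AX over H2AX. Of the 30 members there 24 had an H3K27me3 ratio under 0.5, and 0 reached 2. On chromosome 22 the corresponding numbers were 10 and 16 of 41, and on chromosome 9 they were 3 and 2 of 6. The 24 low-H3K27me3 members of chromosome 13 had log2 ratios of gamma-H2AX at 1 h to H2AX between -0.22 and 0.08, with a median of 0.01. Other windows of chromosome 13 in the same H3K27me3 class, inside and outside the search range, had a median of 0.38, with 5th and 95th percentiles of -0.20 and 0.93. The 10 low-H3K27me3 members of chromosome 22 had a median of 0.48, against 0.49 in other windows of that chromosome in the class. The 6 members of chromosome 13 with an H3K27me3 ratio of 0.5 to 2 had log2 ratios between -0.89 and 0.01, with a median of -0.58. The lowest were -0.89 in chr13:108600001-108700000 and -0.81 in chr13:93900001-94000000. These comparisons were not tested.

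H3K27me3 itself averaged 19.5 in the members of chromosome 9, 0.994 in those of chromosome 13 and 11.3 in those of chromosome 22. The window medians were 2.45, 0.328 and 9.39 in the same order. The chromosome 9 average rests on the windows at 53.3 and 57.8, and the other 4 ran from 0.439 to 3.77. The ratio to H2AX shares the K562 H2AX libraries with the rule, and its counts are description only. Over K562 H2AX, limma called 26 members higher and 44 lower, against 26.7% higher, 61.7% lower and 88.5% in either direction among all tested windows, with 29 of the lower ones on chromosome 13 and 24 of the higher ones on chromosome 22. The direction over all members depends on scaling. Median-of-ratios scaling raised the H3K27me3 library by 1.21 on the log2 scale and shifted the other 9 by -0.49 to -0.15, and gave 41 members higher and 34 lower, with a median log2 ratio of 0.72 in place of -0.64. Of the higher ones 6 were then on chromosome 13, against 0 without that scaling. The share of all tested windows called under that scaling is not given here. Nothing particular to the members is read from these counts. With 24 h replicate 1 in the fit 3 members were called.

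At 24 h gamma-H2AX stood above H2AX on chromosome 13 and below it on chromosomes 9 and 22. The median log2 ratio of 24 h replicate 2 to K562 H2AX was 0.36 in the members of chromosome 13, -0.22 in those of chromosome 9 and -0.39 in those of chromosome 22. On chromosome 13 the 24 h library exceeded both H2AX replicates in 30 of 30 members, an order found in 52.1% of all tested windows. It fell below both in 6 of 6 members on chromosome 9 and in 39 of 41 on chromosome 22, against 41.5% of all tested windows. The H2AX libraries of this ratio chose the members, so these counts too are description only. Limma called 0 members and 0 of all tested windows at an adjusted p under 0.05, and 56 members and 8019 windows had an unadjusted p under 0.05. Some fits on fewer libraries called members. The share of all tested windows called in those fits is not given here, so nothing particular to the members is read from them.

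The windows of the same chromosomes outside the search ranges had medians in the same order, 0.18 on chromosome 13, -0.01 on chromosome 9 and -0.40 on chromosome 22. In HepG2, where these stretches had no such depth, gamma-H2AX over H2AX at 1 h had medians of 0.15, -0.42 and -0.31 in the members of chromosomes 13, 9 and 22, in that order. Over the 77 members the HepG2 ratio and the K562 24 h ratio, which share no library, had a Spearman correlation of 0.83, and over the 27529 other windows 0.74. Within chromosome 13 it was 0.32 (n = 30) and within chromosome 22 it was 0.64 (n = 41). In 10-kb windows it was lower, at 0.57 over 763 windows, 0.08 over 299 on chromosome 13 and 0.28 over 404 on chromosome 22. The 1 h ratios of K562 and HepG2 had a correlation of -0.02 over the members, which was 0.42 within chromosome 13 and -0.37 within chromosome 22, and of 0.21 over the other windows. Windows on a chromosome share base composition and large-scale chromatin, whose part in these values was not tested. The HepG2 H2AX libraries also entered the rule, so the counts in HepG2 are description only. Limma called 0 members in HepG2 gamma-H2AX over H2AX, with 30 members and 1660 of all tested windows at an unadjusted p under 0.05. Here too some fits on fewer libraries called members. Without the share of all tested windows beside them, nothing particular to the members is read from those fits.

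**Figure D3:**
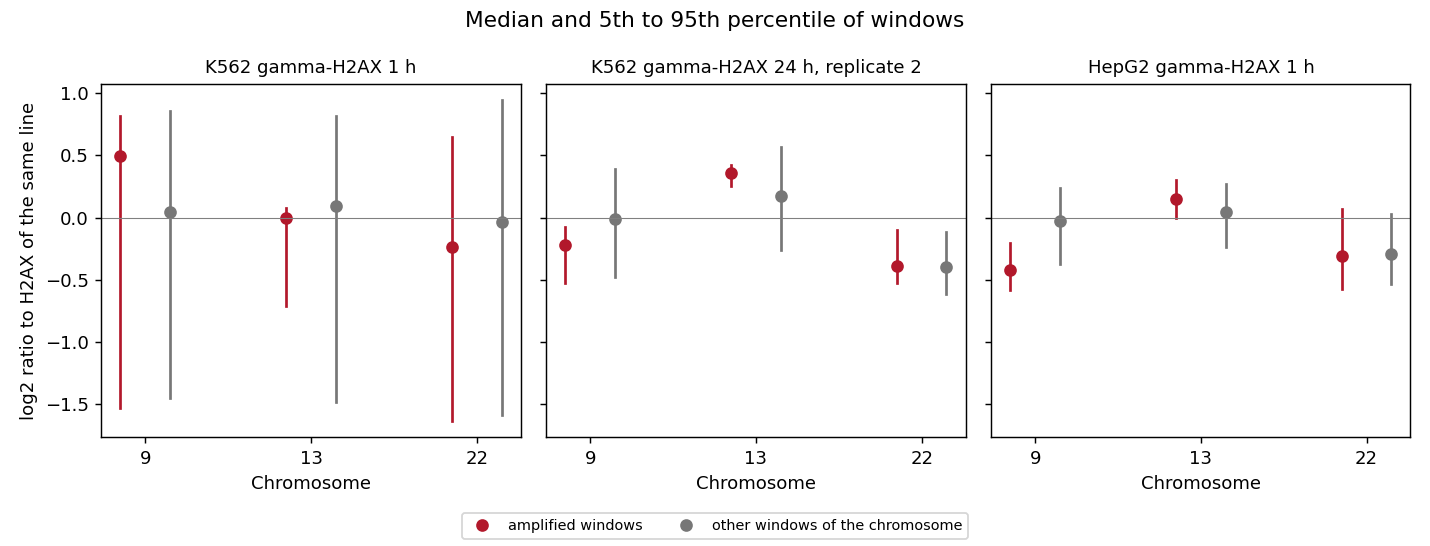
Median (point) and 5th to 95th percentile (line) of the log2 ratio of gamma-H2AX to H2AX of the same line. Member windows are red, and the other windows of the chromosome, without those of the search range, are grey. At 24 h and in HepG2 the medians of the members of chromosome 13 lie above 0 (0.36 and 0.15) and those of chromosome 22 below it (-0.39 and -0.31), as do the medians of the other windows of those chromosomes.

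Between the times, 24 h replicate 2 had the higher median on chromosome 13. Its median relative depth there was 5.40, with a range of 4.17 to 6.27, against 3.90 (2.20 to 5.37) and 4.34 (1.71 to 4.78) in the 1 h replicates. The fold change is expressed as 1 h over 24 h, so that a negative value means a higher level at 24 h. Limma called 42 members negative and 21 positive, against 36.8% negative, 20.5% positive and 57.3% in either direction among all tested windows, and the members' median was -0.34, against -0.12 over all tested windows. On chromosome 13, 24 members were called higher at 24 h and 0 higher at 1 h. On chromosome 22, 16 were higher at 24 h and 17 at 1 h, with a median of -0.02 that changed to 0.04 under median-of-ratios scaling. On chromosome 9, 2 were higher at 24 h and 4 at 1 h. A fit on the 24 h and 1 h libraries alone called 21 members negative and 2 positive, with 4 negative on chromosome 13 and 0 positive on chromosome 22. The share of all tested windows called in that fit is not given here. The counts from it show only how far the calls depend on the libraries fitted. With 24 h replicate 1 in the fit 0 members were called and the median became 2.90, a value set by the zeros of that track.

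The lowest and the highest of these fold changes were on chromosomes 22 and 9. Gamma-H2AX in chr22:23100001-23200000 was 8.88 at 24 h (replicate 2), against 3.47 and 2.42 at 1 h (log2 of 1 h over 24 h -1.60 ± 0.16 SE), where H2AX was 9.61 and 9.42 and H3K27me3 was 24.5. The 24 h value was thus close to H2AX while the 1 h values lay at less than 0.5 times it. In chr9:131000001-131100000 gamma-H2AX was 2.24 at 24 h, against 5.09 and 6.79 at 1 h (log2 of 1 h over 24 h 1.37 ± 0.16 SE), where H2AX was 3.33 and 3.02 and H3K27me3 was 0.439. Here the 24 h value lay below H2AX and both 1 h values above it. As the extremes of this fold change, both windows are given as a description with no test.

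The edges of the segments stood at nearly the same place in H2AX and in gamma-H2AX. Of the edges of runs of at least 3 windows, 8 had at least 75% of the bins around them and did not adjoin a left-out locus: 6 on chromosome 13, 1 on chromosome 9 and 1 on chromosome 22. The largest step of gamma-H2AX lay within 10 kb of that of K562 H2AX at 8 of 8 edges in windows of 10 kb, both at 1 h and in 24 h replicate 2. In bins of 1 kb smoothed over 5, 7 of the 8 steps at 1 h and 8 of the 8 at 24 h lay within 1 kb of the H2AX step, and the numbers within 10 kb were the same. Across the edges K562 gamma-H2AX was higher inside by 6.13 times at 1 h and 7.62 times at 24 h (medians over 8 edges), against 8.19 times in H2AX. At their own largest steps near the same edges, HepG2 gamma-H2AX was 0.719 to 1.31 times as high inside as outside, and HepG2 H2AX 0.829 to 1.38 times.

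One such edge on chromosome 13 lay at 92477001, where the largest step of K562 H2AX, of 1 h gamma-H2AX and of 24 h replicate 2 fell on the same bin. Inside it gamma-H2AX was 3.88 at 1 h and 5.22 at 24 h, against 3.99 in H2AX, and outside it was 0.602 at 1 h and 0.668 at 24 h, against 0.432 in H2AX. On chromosome 9 the distal edge lay at 134156001 in all 3, with 8.11 inside and 1.40 outside at 1 h, 5.94 and 1.10 at 24 h, and 6.03 and 1.18 in H2AX. The 1 h step was larger than the H2AX step there and smaller at the 6 edges on chromosome 13. At the edge at 81086001 on chromosome 13 the 1 h step lay 11 kb before that of H2AX.

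**Figure D4:**
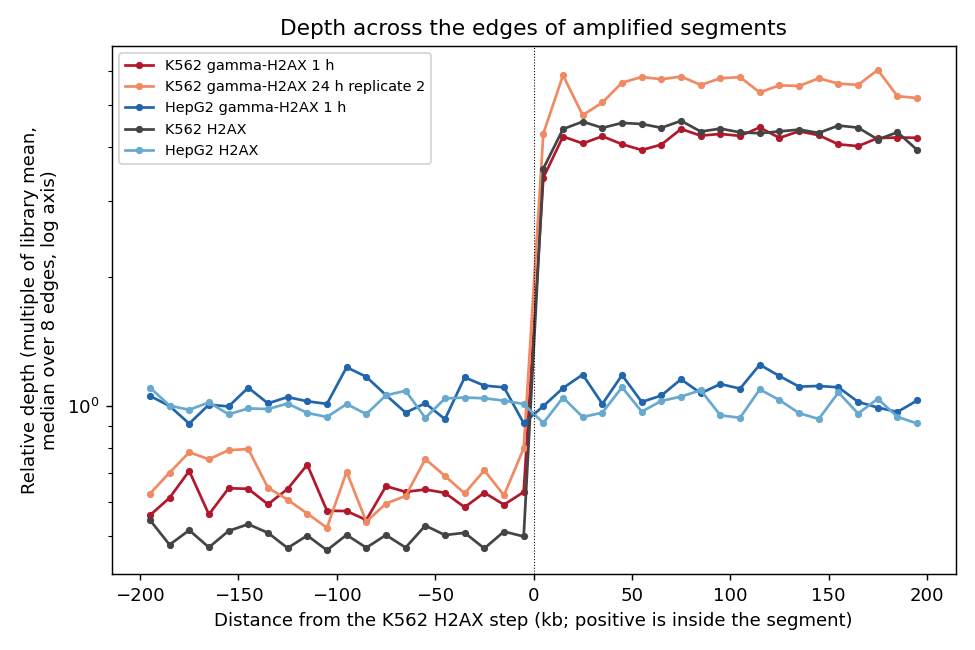
Relative depth (multiple of the library mean, log axis) in bins of 10 kb by distance from the K562 H2AX step, as the median over 8 edges, with the inside of the segment to the right. The 3 K562 profiles step up together at 0, by medians of 6.13 to 8.19 times, and both HepG2 profiles stay near 1.

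Inside the members gamma-H2AX at 1 h was more uneven than H2AX, as it was in the other windows of these chromosomes. With each 1-kb bin divided by the mean of its window, the coefficient of variation of K562 gamma-H2AX was 48.8% and 58.5% at 1 h and 35.6% at 24 h (replicate 2), against 30.4% and 30.8% in K562 H2AX. HepG2, with fewer reads there, gave 62.9% in gamma-H2AX and 48.6% and 48.3% in H2AX. On chromosome 13 the 1 h values were 34.8% and 34.3%, against 28.9% and 28.3% in H2AX, and on chromosome 22 they were 56.6% and 71.8%, against 30.3% and 31.4%. At 10 kb the 1 h replicates had 36.2% and 46.3% and 24 h replicate 2 had 21.9%, against 21.2% and 21.3% in H2AX. The bin profiles of the 1 h replicates had a Spearman correlation of 0.82 over 7611 bins, as did those of the K562 H2AX replicates. On chromosome 13 these were 0.49 at 1 h and 0.41 in H2AX (2970 bins). The other windows of these chromosomes had lower K562 depth. Their coefficients of variation at 1 kb were 68.6% and 67.5% at 1 h, against 46.2% and 45.9% in K562 H2AX.

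The 1 h peaks as deposited were dense in the members of chromosomes 9 and 22 and sparse in those of chromosome 13. The 1 h lists of the authors placed 267 of 41947 peaks (replicate 1) and 202 of 46072 peaks (replicate 2) in members. That is 35.1 and 26.5 peaks per Mb, against 14.9 and 16.4 per Mb elsewhere. By chromosome the densities were 58.3 and 56.7 per Mb on chromosome 9, 8.08 and 10.1 on chromosome 13, and 51.5 and 34.2 on chromosome 22. The median fold enrichment of these peaks, the authors' own value, was 1.54 and 1.65 in members, against 1.78 and 1.76 elsewhere. At a q-value under 0.05, 46 of 3397 and 92 of 6785 peaks lay in members. That is 6.04 and 12.1 per Mb, against 1.20 and 2.40 per Mb elsewhere. Of those in members, 45 and 90 were on chromosome 22, 0 and 2 on chromosome 9 and 1 and 0 on chromosome 13. On chromosome 9 that left 0 and 3.33 peaks per Mb, which rest on too few peaks to be set against the density elsewhere. On chromosome 22 the 10 low-H3K27me3 members held 119 and 82 peaks, while the 16 members with an H3K27me3 ratio of 2 or more held 14 and 9. More reads per window raise the number of peaks a caller can reach, and the part of this in the densities was not tested.

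Most of the few deposited 24 h peaks lay in the members. The list of 24 h replicate 1 has 5 of its 8 peaks there, and that of replicate 2 has 9 of 13, with 1 and 4 more in the left-out loci. All of the members' 24 h peaks overlapped a 1 h peak of both replicates. They were on chromosome 22, apart from 2 of replicate 1 in chr9:134000001-134100000. At the 9 peaks of replicate 2 the 1 h libraries had medians of 15.2 and 21.7, and 24 h replicate 2 had a median of 3.88, against 7.51 and 6.24 in K562 H2AX. The 24 h track lay below both H2AX replicates at 9 of these 9 peaks and below the mean of its own window at 6 of them. At the 5 peaks of replicate 1 the track of that library reads 0. The HepG2 list placed 0 of its 156 peaks in the members, which hold 0.272% of all bins. Its density elsewhere was only 0.0559 peaks per Mb, so this 0 is not read as a difference between the lines.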

How the data were processed

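The deposited tracks hold signal as mean read coverage in 1-kb bins, unscaled per the values. The authors' peak lists give a fold ratio over a control not given in the sources used here, a score that was not used, and −log10 p and q per the deposited columns. BWA 0.7.12, SAMtools, MACS2 and hg19 are named per the submitters' processing notes. Each library was divided by its mean without chromosome Y, and bins were averaged to 100-kb windows with at least 50% of their bins. Windows with H2AX of at least 0.25 in each line (27606) were tested on log2(relative depth + 0.05) by limma 3.58.1 in R 4.3.3 with a trend, 9 libraries, 6 group means and 3 residual degrees of freedom, and p-values adjusted over all windows. Fold changes understate low windows. Groups with 1 library use the pooled spread. Tested on simulated data, the fit recovered 0% of windows changed by a log2 of 0.5 and 60.5% at 1 for K562 1 h over H2AX (3 false calls), and 32.0% at 1 for K562 over HepG2 (1 false call) and for 1 h over 24 h (0 false calls), of 200 changed windows each. Only these 200 of 27606 windows differed in the simulation, whereas 71.1% were called in the data for K562 1 h over H2AX. The adjusted p was thus harder to reach in the simulation, and its recovery does not carry over to the data.

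If 60 and 41 bp are the read lengths, a window at the library mean holds 795 to 2971 reads. In members the lowest window held 493 reads in HepG2 gamma-H2AX and 2203 in the K562 1 h libraries. The members and lists were chosen with earlier results of these data known. Named windows were drawn from a list set by rule. Per chromosome it held the 2 highest in K562 H2AX and the 2 highest and 2 lowest in 1 h over H2AX. It also held the highest of each chromosome in H3K27me3, those with a 24 h peak and those nearest the threshold. Not every window of the list is named, and those left unnamed include windows on chromosomes 13 and 22. The window chr22:18900001-19000000 is also named for its HepG2 comparison, a use chosen after its values were seen. Peaks were counted by their centre. Edges are the largest step in log2 mean depth between 50 kb on either side, within 100 kb of the edge of a run. Genes were not placed and gene lists not used, since no hg19 annotation was at hand. Alternatives were other pseudocounts, filters, scalings, thresholds, libraries and a replicate block. Python 3.11.15, numpy 2.4.6, pandas 2.3.3 and matplotlib 3.10.9 were used.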

Additional observations from a re-analysis of the deposited data

Results flagged for a closer look

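The response to irradiation, taken as gamma-H2AX at 1 h over H2AX of the same line, differed between K562 and HepG2 in 45 members by limma's interaction term (adjusted p under 0.05). Of the 77 members 19 were higher and 26 lower in K562, against 16.3% higher, 29.3% lower and 45.7% in either direction among all tested windows. Both H2AX groups of this term entered the rule, so these counts are a description. The difference was highest in chr9:131000001-131100000, at a log2 value of 1.39 ± 0.21 SE, and lowest in chr22:23100001-23200000, at -1.54 ± 0.21 SE. These are the extremes of the same term and carry no test. HepG2 has 1 gamma-H2AX library, whose spread was taken from the other groups.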

How the results depend on the processing

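Membership was stable: 81 windows at a 2.5-fold and 67 at a 4-fold threshold, and 77 under each of the other settings. Including 24 h replicate 1 left 1 member called for K562 1 h over H2AX, 0 for 1 h over 24 h, 0 for K562 over HepG2 at 1 h, 3 for H3K27me3 and 0 for the interaction; its zeros enter the pooled spread. With only the compared groups in the fit, 23 members were called for 1 h over 24 h, 55 for 24 h over H2AX and 45 for HepG2 gamma-H2AX over H2AX. Leaving out 1 replicate at a time gave 0 to 61 members for 24 h over H2AX (58 without K562 1 h replicate 1 and 61 without replicate 2) and 0 to 31 for HepG2 (29 and 31 in the same order); the cause was not tested. The other ranges were 38 to 52 for 1 h over H2AX, 58 to 69 for 1 h over 24 h, 76 to 77 for K562 over HepG2, 69 to 72 for H3K27me3 and 34 to 55 for the interaction. Over these omissions the log2 ratio of 1 h to H2AX ran from -0.043 to 0.19 in chr13:91200001-91300000 and from -0.041 to 0.19 in chr13:90500001-90600000, with the lowest values without K562 1 h replicate 2 and the highest without replicate 1; it was 0.08 and 0.07 with all. Pseudocounts, the filter and median-of-ratios scaling kept each count of called members within 1.5 times, but median-of-ratios scaling gave 41 higher and 34 lower for H3K27me3, against 26 and 44. The replicate block gave 46, 62, 0, 77, 0, 70 and 44 members for 1 h over H2AX, 1 h over 24 h, 24 h over H2AX, K562 over HepG2, HepG2, H3K27me3 and the interaction. Same-numbered libraries share only a number, with correlations of their deviations of 0.03 to 0.30. The counts of members under these settings are given without the share of all tested windows. They show only how far the calls depend on the fit.

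Mean relative depth in the members, taken as the median bin over the track median, was 5.14 at 1 h, 5.64 in 24 h replicate 2, 3.83 in H3K27me3 and 0.912 in HepG2 H2AX. The 2.5-fold threshold gave 5.32 in K562 H2AX and 7.57 in H3K27me3, and the 4-fold threshold gave 5.77, 8.92 and, in HepG2 H2AX, 0.895. Peaks at q under 0.05 in members numbered 46 of 3397 and 92 of 6785 in the 1 h lists. At 10 kb the coefficient of variation averaged 41.2% at 1 h, 21.9% in 24 h replicate 2, 22.7% in HepG2 gamma-H2AX, 21.3% in K562 H2AX and 19.3% in HepG2 H2AX. Depth limits the HepG2 bins most, and single-library groups have no replicate check.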
